A study of Homo sapiens with 12 samples.

Results

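The proteasome genes were followed in newly made RNA of U2OS-MycER cells. They were taken from the count table by symbol: every row named PSMA to PSMG followed by a number, plus PSMF1, POMP and ADRM1. The rule gave 50 of 23434 rows. By role these were 8 genes of the outer (alpha) ring of the 20S core, 7 of its constitutive inner (beta) ring, 4 beta genes of the immunoproteasome and thymoproteasome, 9 of the base of the 19S cap, 9 of its lid together with PSMD4, 5 activators and inhibitors, and 8 assembly factors.

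The proteasome is the barrel-shaped protease that degrades proteins tagged with ubiquitin. The alpha rings gate the barrel, the beta rings hold the catalytic sites inside it, and the 19S cap recognizes, deubiquitinates and unfolds the substrate before pushing it in. Dedicated chaperones build the rings and the cap and leave the finished particle. The subunit genes are known to be transcribed together when proteasome activity falls short, through the transcription factor NFE2L1, which binds antioxidant response elements with small MAF partners, and MYC is known to raise ribosome production and protein synthesis in growing cells.

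U2OS is a human osteosarcoma line, and U2OS-MycER cells carry a fusion of Myc and the estrogen receptor whose activity depends on 4-hydroxytamoxifen (OHT). The 12 libraries came in 4 groups of 3: a non-targeting shRNA (shNT), the same with OHT (shNT_OHT), an shRNA against the kinase CDK12 (shCDK12), and that shRNA with OHT (shCDK12_OHT). CDK12 phosphorylates RNA polymerase II and is known for its role in the transcription of long genes. OHT was given at 300 nM over 40 h, and the OHT-free groups had none. All 4 groups received doxycycline at 1 µg/mL, were held with nocodazole at 100 ng/mL over 8 h, were collected 12 h after release, and were pulsed with 0.5 mM 5-ethynyl-uridine (EU) over 2 h. The EU-marked RNA made in that window was captured and sequenced (EU-seq) after 40 µg of human RNA had been mixed with 10 µg of mouse RNA. The sources used here give neither the number of shRNAs or clones nor whether replicates were separate cultures, so the p-values measure the spread between these libraries, which may be technical.

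Counts per library summed to between 1251695 and 10447836, with the lowest totals in shNT and shNT_OHT. The shNT_OHT replicate 1 library stood apart from replicates 2 and 3 (chi-square per degree of freedom 9.87 and 10.2, against 4.16 between replicates 2 and 3). For shCDK12 replicate 2 against its replicates 1 and 3 the values were 7.60 and 5.26, against 3.45 between replicates 1 and 3. This measure grows with depth, which was not taken out. The shCDK12 replicate 2 library had 9400045 counts, against 4142570 and 5349901 in replicates 1 and 3. Of the 10 mesenchymal and osteoblast markers, RUNX2, COL1A1, SPARC, VIM and FN1 were present, while COL1A2, SP7, BGLAP and IBSP were at or near 0 and ALPL was low. Their summed level was 1505 to 1582 CPM (counts scaled to a common library size) in shNT, 1004 to 1105 in shNT_OHT, 406 to 419 in the libraries labelled shCDK12 and 568 to 583 in those labelled shCDK12_OHT. The 10 markers of epithelial, blood, liver and neural cells summed to at most 34.1 CPM in any library. Among them EPCAM was at 0 to 1.76 CPM in shNT, 0.580 to 2.51 in shNT_OHT, 6.66 to 9.55 in the libraries labelled shCDK12 and 2.36 to 2.85 in those labelled shCDK12_OHT, and SYP was lower in the libraries labelled shCDK12 than in shNT (-1.05 ± 0.27, adjusted p = 0.00167). The part of these differences in the results was not tested.

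Newly made RNA of the targeted gene did not follow its label without OHT, and was lower by label with OHT. Its total mRNA and its protein were not measured in these libraries. CDK12 stood at 323, 289 and 300.2 CPM in the shNT libraries and at 293, 277 and 298 CPM in those labelled shCDK12, and these ranges overlapped (log2 fold change -0.08 ± 0.08 (SE, n = 3 per group), edgeR adjusted p = 0.447). It was 434, 356 and 400.5 CPM in shNT_OHT and 215, 208 and 218 CPM in the libraries labelled shCDK12_OHT, where it was 1.84-fold lower (adjusted p = 1.10e-04). The groups are therefore called the libraries labelled shCDK12 and shCDK12_OHT, and directions drawn from them are directions between labels. The comparison of shNT_OHT with shNT holds none of these libraries. MYC, whose reads include those of the MycER transgene, was 2093 ± 112 CPM in shNT, 1967 ± 248 in shNT_OHT, 1124 ± 89.8 in the libraries labelled shCDK12 and 2062 ± 53.5 in those labelled shCDK12_OHT (mean ± SD, n = 3).

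The promoters of 6 proteasome genes are printed because these genes carry the main differences below: PSMG1, PSMB10, PSMC4 and ADRM1 rose upon MycER activation with shNT, PSMG2 fell, and PSMD13 was the subunit furthest below shNT in the libraries labelled shCDK12. Each window runs from 250 bases before to 50 bases after the start of the gene in RefSeq (GRCh38.p14), 5′ to 3′ on the gene's strand. Capitals mark every match, on either strand, to the E-box CACGTG bound by MYC and its partner MAX, the antioxidant response element TGACNNNGC, the core of sites for ETS factors CCGGAAG, the GC box bound by SP1-type factors GGGCGG, the box bound by NF-Y CCAAT or the TATA box spelled here as TATAAA, and runs of capitals can hold several overlapping matches.
PSMG1: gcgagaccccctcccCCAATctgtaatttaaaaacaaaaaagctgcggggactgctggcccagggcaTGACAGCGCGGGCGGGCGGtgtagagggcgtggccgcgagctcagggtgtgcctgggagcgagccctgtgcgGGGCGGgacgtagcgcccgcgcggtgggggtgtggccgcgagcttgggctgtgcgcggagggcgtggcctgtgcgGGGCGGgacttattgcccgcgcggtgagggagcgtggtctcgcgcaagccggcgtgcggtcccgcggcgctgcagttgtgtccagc
PSMB10: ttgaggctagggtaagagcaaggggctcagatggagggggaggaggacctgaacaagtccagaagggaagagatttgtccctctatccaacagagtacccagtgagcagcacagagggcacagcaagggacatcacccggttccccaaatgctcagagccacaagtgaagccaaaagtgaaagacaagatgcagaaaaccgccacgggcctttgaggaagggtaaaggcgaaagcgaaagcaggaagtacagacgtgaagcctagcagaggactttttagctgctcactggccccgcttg
PSMC4: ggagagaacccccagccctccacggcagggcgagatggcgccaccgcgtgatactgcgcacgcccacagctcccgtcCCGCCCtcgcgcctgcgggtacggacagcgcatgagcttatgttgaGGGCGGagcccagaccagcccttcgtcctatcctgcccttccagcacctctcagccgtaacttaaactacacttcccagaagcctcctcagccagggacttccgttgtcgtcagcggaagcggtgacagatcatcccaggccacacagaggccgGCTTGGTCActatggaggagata
ADRM1: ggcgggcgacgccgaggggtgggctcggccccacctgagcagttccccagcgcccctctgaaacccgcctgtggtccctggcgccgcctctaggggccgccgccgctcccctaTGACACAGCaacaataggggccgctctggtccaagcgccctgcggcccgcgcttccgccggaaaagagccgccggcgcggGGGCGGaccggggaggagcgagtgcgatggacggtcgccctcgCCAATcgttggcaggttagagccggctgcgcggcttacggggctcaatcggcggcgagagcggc
PSMG2: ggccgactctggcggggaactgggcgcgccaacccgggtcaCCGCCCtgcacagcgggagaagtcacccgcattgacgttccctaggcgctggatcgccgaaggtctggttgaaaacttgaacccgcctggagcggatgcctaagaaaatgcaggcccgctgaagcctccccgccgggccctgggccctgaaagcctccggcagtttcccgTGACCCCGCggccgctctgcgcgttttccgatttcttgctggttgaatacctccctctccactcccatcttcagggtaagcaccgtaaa
PSMD13: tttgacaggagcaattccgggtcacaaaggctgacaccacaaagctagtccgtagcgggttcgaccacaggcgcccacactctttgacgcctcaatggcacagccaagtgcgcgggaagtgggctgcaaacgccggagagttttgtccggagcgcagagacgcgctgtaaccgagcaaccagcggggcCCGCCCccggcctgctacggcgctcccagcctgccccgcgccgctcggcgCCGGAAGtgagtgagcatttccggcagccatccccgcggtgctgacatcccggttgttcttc

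These windows lie at chr21:39183402-39183701, minus strand (PSMG1), chr16:67936801-67937100, minus strand (PSMB10), chr19:39970915-39971214, plus strand (PSMC4), chr20:62302646-62302945, plus strand (ADRM1), chr18:12658488-12658787, plus strand (PSMG2) and chr11:236726-237025, plus strand (PSMD13). The antioxidant response element was written once in each of the PSMG1, PSMC4, ADRM1 and PSMG2 windows. The PSMG1 window also held 4 GC boxes and 1 CCAAT, the PSMD13 window 1 ETS core and 1 GC box, and the PSMB10 window 0 matches to the 6 motifs.

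Promoter windows were found for 44 of the 50 proteasome genes, all but PSMA7, PSMB1, PSMB6, PSMB7, PSMD4 and PSMG3. The antioxidant response element was in 14 of the 44 (31.8%), against 14.5% of all 16493 promoters and 15.4% of the 8374 promoters of genes tested in shNT_OHT against shNT. Besides the 4 printed above, its holders were PSMB3, PSMB9, PSMD1, PSMD3, PSMD5, PSMD9, PSMD12, PSME1, PSME2 and PSME4. The E-box was in 3 of the 44 (6.82%; PSMB3, PSMD9 and PSME3), against 8.80% of all promoters and 10.5% of those of tested genes. None of the 5 genes that changed upon MycER activation with shNT was among these 3. The ETS core stood in 14 windows (31.8%, against 21.3% of tested genes), the GC box in 29 (65.9%, against 57.8% and 71.5%), CCAAT in 20 (45.5%, against 36.3% and 37.5%) and TATAAA in 5 (11.4%, against 9.53% and 5.27%). A match describes the letters of a window and not the binding of a factor.

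Read levels are given as CPM with library sizes adjusted by the trimmed mean of M values (TMM). Divided by the length in kilobases of each gene's canonical transcript, the shNT level of the 47 proteasome genes tested at least once ranged from 3.37 (PSMC1, an ATPase of the base) to 158.6 CPM per kb (ADRM1, a ubiquitin receptor of the cap), a 47.1-fold range around a median of 31.8. ADRM1 at 159 ± 6.65, PSMB4, a beta ring subunit, at 152 ± 17.6, and PSMD2, the scaffold of the base, at 152 ± 3.74 CPM per kb were the highest, and these 3 did not differ beyond their SDs (n = 3). The assembly chaperone PSMG1, at 4.21 ± 0.562 CPM per kb, was next to the lowest. Of the other 3 genes, PSMA8, the testis form of an alpha subunit, had at most 1 count in any library, the thymic PSMB11 at most 5, and the immunoproteasome subunit PSMB9 at most 8, and none of these 3 was tested. Whether reads in introns were counted is not given in the sources used here.

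The 50 genes together took 0.350 to 0.359% of the counts in shNT, 0.370 to 0.387% in shNT_OHT, 0.331 to 0.342% in the libraries labelled shCDK12 and 0.311 to 0.326% in those labelled shCDK12_OHT. The shares of the 4 groups did not overlap, with shNT_OHT highest and shCDK12_OHT lowest. By role the base gave the largest part of this: the 9 base genes summed to 1201 to 1218 CPM in shNT, 1284 to 1511 in shNT_OHT, 1069 to 1071 in the libraries labelled shCDK12 and 912 to 971 in those labelled shCDK12_OHT. By contrast the 8 alpha ring genes summed to 290.2 to 311 CPM in shNT and 218 to 333 in shNT_OHT, ranges that overlap. The table holds no mouse rows against which total RNA synthesis could be scaled, so all levels are relative, and in bulk libraries fewer transcribing cells cannot be told apart from less RNA made per cell.

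**Figure D1:**
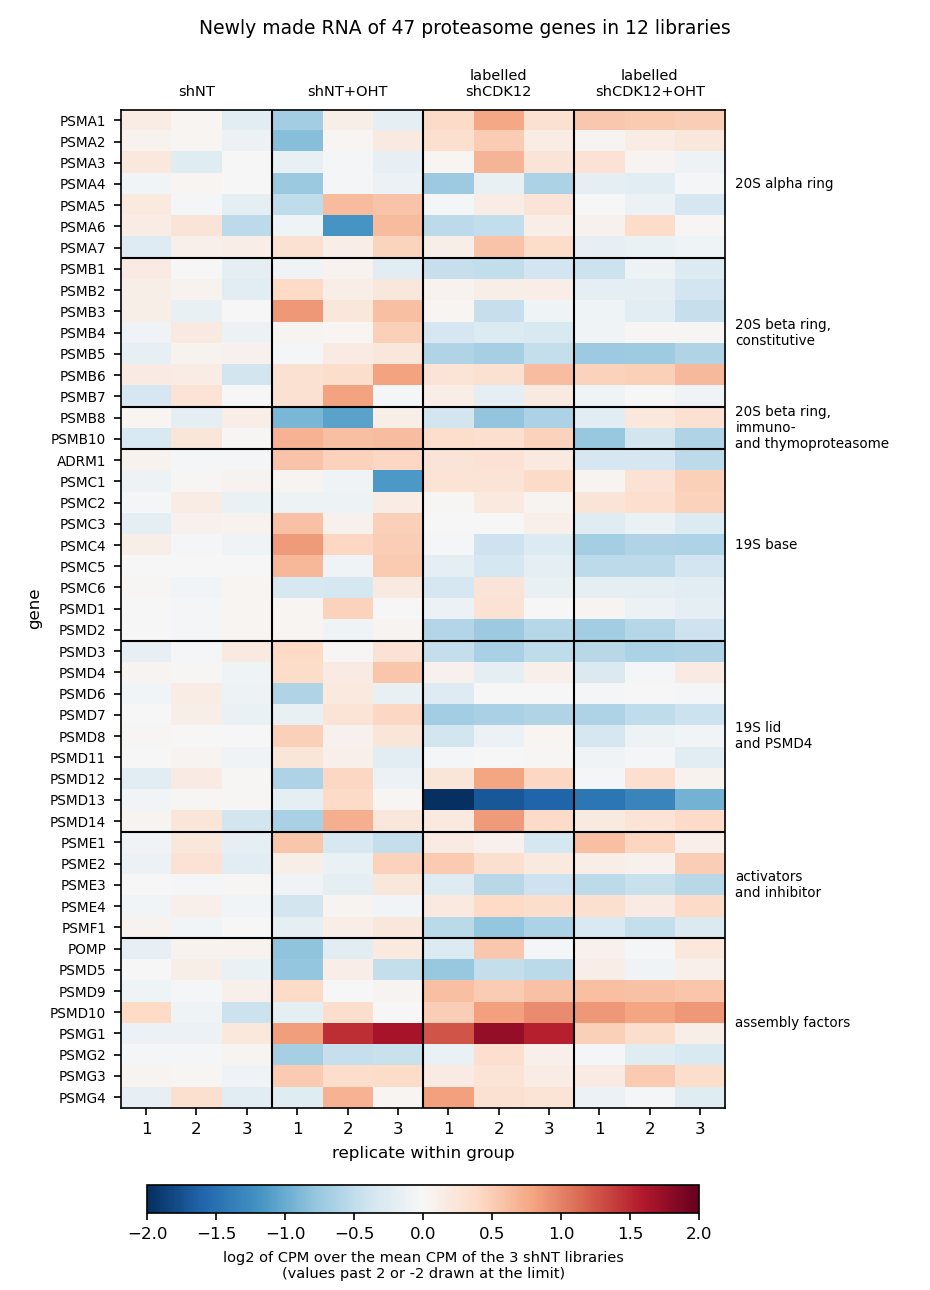
Colour gives the log2 of each library's CPM over the mean CPM of the 3 shNT libraries, for the 47 proteasome genes tested at least once (rows, by role) in 12 libraries (columns, replicates 1 to 3 of each group). PSMG1 is red in shNT_OHT and in the libraries labelled shCDK12, PSMD13 is blue in both groups labelled shCDK12, and most other rows stay pale.

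Upon MycER activation with the non-targeting shRNA, 5 proteasome genes changed. PSMG1 rose 2.59-fold, PSMB10 1.55-fold, PSMC4 1.52-fold and ADRM1 1.39-fold, and PSMG2 fell, 1.44-fold lower than in shNT. They are 5 of the 45 genes tested in shNT_OHT against shNT (11.1%), where 17.3% of all 10272 genes passed the same test (9.05% higher and 8.29% lower; quasi-likelihood test of edgeR, Benjamini-Hochberg adjusted p under 0.05, adjusted over all genes tested). PSMA6, PSMA8, PSMB9, PSMB11 and PSMG4 were under the count limit and not tested. At an unadjusted p under 0.05 there were 11. The share of all genes under that limit was not counted, so this count and those by role below have no background. The median log2 fold change of the 45 was 0.12, against -0.03 over all genes, and 30 of the 45 values were above 0. The 3 libraries of shNT_OHT lay above all 3 of shNT for 10 genes and below them for 1, 11 of 45 in all, where 35.9% of all genes tested did not overlap. The 5 calls are close to the threshold: leaving out 1 library at a time gave between 0 (without shNT replicate 2) and 11 (without shNT_OHT replicate 2), and 8 without the shNT_OHT replicate 1 library that stands apart.

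In the libraries labelled shCDK12 against shNT, 25 of 47 proteasome genes changed (53.2%), 12 higher and 13 lower, against 62% of 11718 genes (29.6% higher and 32.4% lower). The highest were PSMG1 (1.59 on the log2 scale), PSMD10 (0.73) and PSMD9 (0.58), all assembly factors, and the lowest were the lid subunit PSMD13 (-1.77) and the inhibitor PSMF1 (-0.66). The median was 0.03, against -0.03 over all genes, and lay between -0.003 (without shCDK12 replicate 2) and 0.089 (without shNT replicate 2) when 1 library was left out. Of the 25 calls, 15 were kept in all 6 omissions. The libraries of the groups did not overlap for 25 genes, 12 above and 13 below shNT, where 64.5% of all genes did not overlap (30.8% above and 33.7% below).

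In the libraries labelled shCDK12_OHT against shNT_OHT, the calls leaned down: 18 of 47 proteasome genes were lower (38.3%) and 5 higher (10.6%), where 21.6% of all 11668 genes were lower and 23.8% higher. Together these 23 are 48.9% of the 47, against 45.4% of all genes. The median log2 fold change was -0.16, against 0.05 over all genes. The 3 libraries labelled shCDK12_OHT lay below all 3 of shNT_OHT for 19 proteasome genes and above them for 6, where 26% of all genes lay below and 29.2% above (55.2% in all). Under every alternative run, leaving out single libraries included, between 13 and 20 were lower and between 2 and 7 higher. Over all genes, more were lower than higher with DESeq2 (2743 and 2481), upper-quartile normalization (2770 and 2502) and thinning (1799 and 1359). Removing length and GC trends gave 3074 lower and 2746 higher, or 2835 and 2637 with a replicate block. More were higher than lower with no filter (3415 and 2639) and a mean above 10 (3112 and 2590). So it was with all 12 libraries in 1 fit (3074 and 2958) and the replicate block alone (2650 and 2196). Of the 23 calls, 14 were kept in all 6 omissions of 1 library, and PSMA7, PSMB2, PSMC2, PSMD4, PSMD8, PSMD9, PSME4, PSMF1 and PSMG1 were lost in at least 1.

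With OHT against without it in the libraries labelled shCDK12, 18 of 47 proteasome genes changed (38.3%), 7 higher and 11 lower, against 48.9% of 12519 genes (27.5% higher and 21.5% lower). The split moved with the scaling, being 4 higher and 11 lower with DESeq2 and 4 higher and 13 lower with upper-quartile normalization. Of the 18 calls, 9 were kept in all 6 omissions of 1 library. The median was -0.06, against 0.05 over all genes. The libraries did not overlap for 16 genes, 6 above and 10 below those without OHT, where 56.3% of all genes did not overlap (31.7% above and 24.7% below).

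Of the chaperones that build the particle, PSMG1 had the largest response to OHT among the proteasome genes in both backgrounds. It with PSMG2 forms the dimer on which the alpha ring is put together. PSMG1 (Entrez gene 8624) was at 6.79, 6.83 and 8.52 CPM in shNT, 13.2, 20.6 and 23.2 in shNT_OHT, 17.6, 25.0 and 21.7 in the libraries labelled shCDK12 and 10.3, 9.41 and 7.98 in those labelled shCDK12_OHT. Every library of shNT_OHT and of the group labelled shCDK12 was above all shNT libraries and all libraries labelled shCDK12_OHT. The counts behind these values were few: 29, 35 and 17 in shNT and 42, 25 and 80 in shNT_OHT. The log2 fold change was 1.37 ± 0.32 in shNT_OHT against shNT (SE, n = 3 per group; edgeR adjusted p = 0.0105) and 1.59 ± 0.24 in the libraries labelled shCDK12 against shNT (adjusted p = 3.45e-06). It was -1.22 ± 0.18 with OHT against without it in the libraries labelled shCDK12 (adjusted p = 1.84e-05) and -0.998 ± 0.26 in shCDK12_OHT against shNT_OHT (adjusted p = 0.0102). The first of these calls was lost without shNT replicate 1 (adjusted p = 0.0590), without shNT replicate 2 (0.0709) and without shNT_OHT replicate 3 (0.0507), with log2 fold changes between 1.18 and 1.63 over the 6 omissions. The last was lost in 1 of 6, without shCDK12_OHT replicate 3 (adjusted p = 0.0512).

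PSMG2, the partner of PSMG1, moved the other way upon MycER activation. It was at 68.4, 67.3 and 72.2 CPM in shNT, 43.5, 50.3 and 51.0 in shNT_OHT, 63.2, 87.9 and 74.0 in the libraries labelled shCDK12 and 67.6, 58.7 and 56.1 in those labelled shCDK12_OHT. All shNT_OHT libraries were below all shNT libraries. The log2 fold change was -0.53 ± 0.17 (adjusted p = 0.0426), a call that was lost with DESeq2 (adjusted p = 0.0553), with upper-quartile normalization (0.0568) and in 5 of the 6 omissions of 1 library. The annotated gene overlaps CEP76 and SPIRE1, and the strand setting of the counting is not given in the sources used here, so reads of these genes may not be fully separated.

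The remaining alpha ring chaperones, PSMG3 and PSMG4, and the beta ring maturation factor POMP showed less. PSMG3 was at 73.8, 72.0 and 67.7 CPM in shNT and 103, 90.7 and 91.3 in shNT_OHT, groups that did not overlap, but its log2 fold change of 0.41 ± 0.15 did not pass the test (adjusted p = 0.0666). PSMG4 passed the count limit in 3 pairwise comparisons and was lower with OHT in the libraries labelled shCDK12 (-0.58 ± 0.21, adjusted p = 0.0302). POMP was at 26.0, 30.6 and 30.6 CPM in shNT, 16.6, 24.7 and 33.3 in shNT_OHT, 24.1, 42.2 and 28.7 in the libraries labelled shCDK12 and 30.7, 28.4 and 33.7 in those labelled shCDK12_OHT. These ranges overlapped, and POMP passed the edgeR test in 0 of the 4 pairwise comparisons, where its unadjusted p was at least 0.204.

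PSMD5, PSMD9 and PSMD10 are chaperones of the ATPase ring of the base. PSMD10, also known as the oncoprotein gankyrin, was at 19.7, 14.1 and 11.0 CPM in shNT, 13.2, 19.0 and 15.1 in shNT_OHT, 21.1, 26.3 and 28.7 in the libraries labelled shCDK12 and 27.3, 25.9 and 27.2 in those labelled shCDK12_OHT. All 6 libraries labelled shCDK12 or shCDK12_OHT were above the 6 shNT and shNT_OHT libraries. Its log2 fold change was 0.73 ± 0.21 without OHT (adjusted p = 0.00419) and 0.83 ± 0.20 with it (adjusted p = 0.00652), while OHT gave 0.02 ± 0.31 with shNT (adjusted p = 0.978). PSMD10 overlaps ATG4A in the annotation. PSMD9 also rose by label, by 0.58 ± 0.14 and 0.43 ± 0.15 on the log2 scale (adjusted p = 7.42e-04 and 0.0359).

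PSMD5 went the other way without OHT. It stood at 50.4, 54.5 and 45.6 CPM in shNT, 29.5, 55.3 and 36.0 in shNT_OHT, 29.6, 36.0 and 34.6 in the libraries labelled shCDK12 and 54.7, 47.7 and 53.7 in those labelled shCDK12_OHT. The libraries labelled shCDK12 were below all of shNT and of shCDK12_OHT, and shNT_OHT spanned both. The log2 fold change was -0.59 ± 0.14 against shNT (adjusted p = 9.73e-04) and 0.62 ± 0.12 for OHT in the libraries labelled shCDK12 (adjusted p = 2.49e-04).

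**Figure D2:**
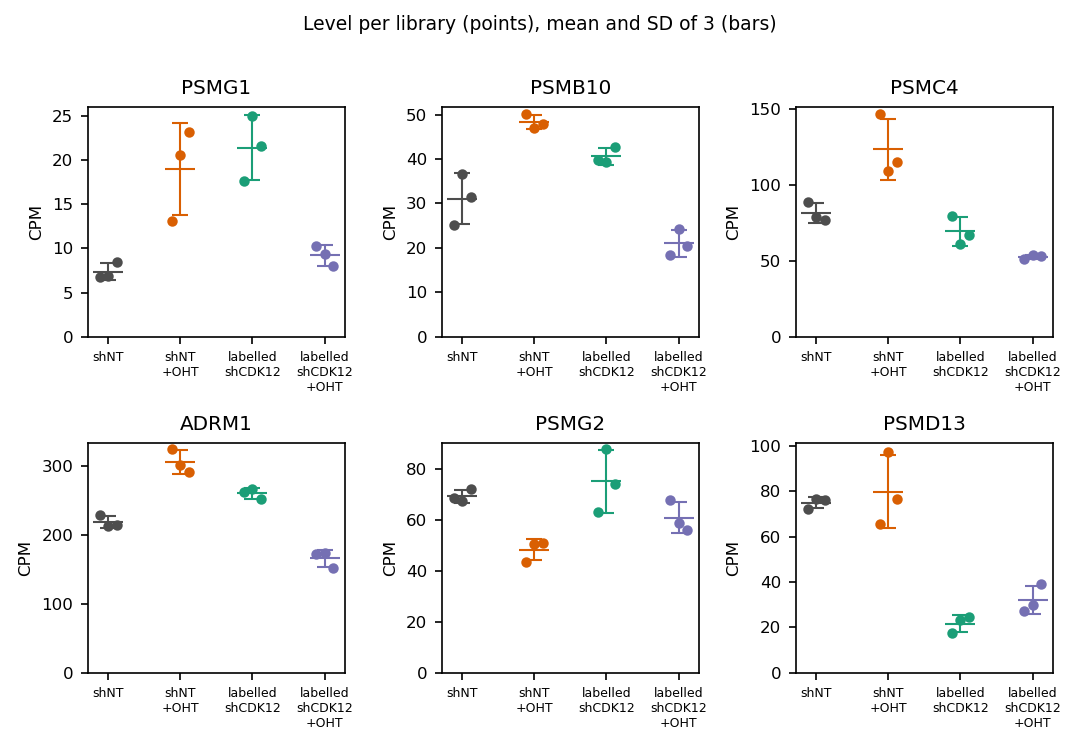
Each panel gives the CPM of 1 gene in the 12 libraries (points), with the mean and SD of 3 (bars), by group. PSMG1, PSMB10, PSMC4 and ADRM1 are higher in shNT_OHT than in shNT without overlap, PSMG2 is lower, and PSMD13 is lower in both groups labelled shCDK12.

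Of the beta ring, PSMB5, PSMB6 and PSMB7 carry the chymotrypsin-like, caspase-like and trypsin-like active sites. PSMB5, the target of bortezomib, was at 57.6, 67.7 and 68.7 CPM in shNT, 63.3, 72.6 and 75.7 in shNT_OHT, 42.8, 40.7 and 46.3 in the libraries labelled shCDK12 and 39.3, 39.5 and 42.4 in those labelled shCDK12_OHT. Both groups labelled shCDK12 were below both shNT groups without overlap. The log2 fold change was -0.58 ± 0.13 without OHT (adjusted p = 6.04e-04) and -0.78 ± 0.14 with it (adjusted p = 0.00102), and the OHT response passed the test in neither background (0.12 with shNT, adjusted p = 0.652; -0.10 in the libraries labelled shCDK12, adjusted p = 0.483).

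PSMB6 was at 47.1, 46.8 and 32.6 CPM in shNT, 52.0, 53.6 and 73.4 in shNT_OHT, 50.7, 52.0 and 65.0 in the libraries labelled shCDK12 and 58.1, 58.8 and 66.0 in those labelled shCDK12_OHT. Its shNT libraries were the lowest of all 12, and it was higher in the libraries labelled shCDK12 than in shNT (0.37 ± 0.15, adjusted p = 0.0329; lost in 2 of 6 omissions, up to 0.204). With shNT, OHT gave 0.49 ± 0.20, which did not pass (adjusted p = 0.106).

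PSMB7 was at 13.1, 19.9 and 16.5 CPM in shNT, 20.4, 28.9 and 16.2 in shNT_OHT, 18.1, 14.6 and 18.7 in the libraries labelled shCDK12 and 15.5, 16.4 and 15.8 in those labelled shCDK12_OHT. These ranges overlapped, and PSMB7 passed the edgeR test in 0 of the 4 pairwise comparisons, where its unadjusted p was at least 0.137. By label the catalytic genes did not move as one: PSMB5 was lower, PSMB6 was higher without OHT, and PSMB7 had log2 fold changes of 0.03 and -0.37.

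Among the beta subunits without an active site, PSMB4, one of the 3 highest per length, was at 132, 158 and 128 CPM in shNT, 145, 143 and 195 in shNT_OHT, 110.2, 115 and 113 in the libraries labelled shCDK12 and 133, 141 and 142 in those labelled shCDK12_OHT. The libraries labelled shCDK12 were below all others, with a log2 fold change of -0.32 ± 0.10 against shNT (adjusted p = 0.00768; lost without shNT replicate 2, 0.132). PSMB1 was also lower there (-0.46 ± 0.13), and PSMB2 and PSMB3 were lower in shCDK12_OHT than in shNT_OHT (-0.49 ± 0.13 and -0.84 ± 0.19). With shNT, OHT gave 0.61 ± 0.21 for PSMB3, one of the genes with an E-box in its window, which missed the threshold (adjusted p = 0.0586).

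PSMB8, PSMB9 and PSMB10 replace the catalytic subunits in the immunoproteasome, which interferon is known to induce. PSMB10 was at 25.1, 36.7 and 31.6 CPM in shNT, 50.1, 47.02 and 47.8 in shNT_OHT, 39.8, 39.2 and 42.7 in the libraries labelled shCDK12 and 18.3, 24.1 and 20.5 in those labelled shCDK12_OHT. The libraries labelled shCDK12_OHT were the lowest 3 of the 12 and those of shNT_OHT the highest 3. It rose by 0.64 ± 0.20 on the log2 scale with OHT and shNT (adjusted p = 0.0418) and had -0.94 ± 0.13 with OHT in the libraries labelled shCDK12 (adjusted p = 1.84e-05). The first call was lost in 4 of the 6 omissions of 1 library, with the adjusted p between 0.0271 and 0.208.

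PSMB8 was at 24.8, 21.5 and 26.6 CPM in shNT, 12.8, 11.5 and 26.4 in shNT_OHT, 18.8, 14.1 and 15.7 in the libraries labelled shCDK12 and 20.8, 28.0 and 30.1 in those labelled shCDK12_OHT. The libraries labelled shCDK12 were below all of shNT and shCDK12_OHT, while 1 shNT_OHT library lay among the shNT libraries and the other two were the lowest of the 12. Its log2 fold change was -0.59 ± 0.20 in the libraries labelled shCDK12 against shNT (adjusted p = 0.0136; 0.0648 without shCDK12 replicate 2) and 0.72 ± 0.17 with OHT there (adjusted p = 0.00166), the reverse of PSMB10 in both. Reads of PSMB8 and of the overlapping PSMB8-AS1 may not be fully separated.

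PSMB9 had 3, 7 and 3 counts in shNT, 0, 1 and 6 in shNT_OHT, 2, 6 and 6 in the libraries labelled shCDK12 and 6, 8 and 5 in those labelled shCDK12_OHT, too few to test. TAP1, the peptide transporter encoded next to PSMB9, was higher in the libraries labelled shCDK12_OHT than in those labelled shCDK12 (1.56 ± 0.14, adjusted p = 1.01e-07). Of the 10 genes of antigen presentation and the interferon response set beside the immunoproteasome, 9 were tested in shNT_OHT against shNT, where 1 was higher, HLA-B (1.33 ± 0.16, adjusted p = 1.18e-04), and 1 lower (9.05% and 8.29% of all genes). In the libraries labelled shCDK12 against shNT, 4 of the 10 were higher, HLA-B, HLA-C and B2M among them, and 4 lower, TAP1, TAP2 and TAPBP among them, where 29.6% of all genes were higher and 32.4% lower. Upon OHT in the libraries labelled shCDK12, TAP1 was the 1 higher gene of the 10. HLA-B (-0.78 ± 0.08, adjusted p = 3.76e-07) and NLRC5 (-0.63 ± 0.20, adjusted p = 0.0166) were the 2 lower ones. Among all genes 27.5% were higher there and 21.5% lower.

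In the alpha ring, 0 of 6 tested genes changed upon MycER activation with shNT, against 17.3% of all genes. Of the 6, 0 had an unadjusted p under 0.05 (values from -0.29 to 0.32). By label without OHT, PSMA1 (0.49 ± 0.14), PSMA2 (0.33 ± 0.12) and PSMA7 (0.38 ± 0.15) were higher and PSMA4 (-0.46 ± 0.13) lower than in shNT. PSMA2 and PSMA7 each lost the call in 3 of 6 omissions of 1 library, and PSMA2 also with length and GC trends removed. PSMA1 was higher by label with OHT too (0.81 ± 0.18, adjusted p = 0.00436), while PSMA7 was lower (-0.43 ± 0.15, adjusted p = 0.0355, lost in 4 of 6 omissions).

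The base holds the ATPases PSMC1 to PSMC6, which unfold substrates, the scaffolds PSMD1 and PSMD2, and the ubiquitin receptor ADRM1. PSMC4 was at 88.8, 79.0 and 76.7 CPM in shNT, 146, 109 and 115 in shNT_OHT, 79.7, 61.0 and 67.2 in the libraries labelled shCDK12 and 50.8, 53.6 and 53.1 in those labelled shCDK12_OHT. The shNT_OHT libraries were the highest 3 and those labelled shCDK12_OHT the lowest 3 of the 12. Its log2 fold change was 0.60 ± 0.16 upon OHT with shNT (adjusted p = 0.0172), -0.39 ± 0.11 upon OHT in the libraries labelled shCDK12 (adjusted p = 0.00665) and -1.22 ± 0.14 between both OHT groups (adjusted p = 8.69e-05). The first call was lost in 3 of the 6 omissions of 1 library, with the adjusted p up to 0.104.

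ADRM1 was at 229, 213 and 214 CPM in shNT, 325, 301 and 292 in shNT_OHT, 263, 267 and 251 in the libraries labelled shCDK12 and 173, 173 and 152 in those labelled shCDK12_OHT. The 4 groups did not overlap, in the order shNT_OHT, shCDK12, shNT and shCDK12_OHT from high to low. The log2 fold change upon OHT was 0.48 ± 0.11 with shNT (adjusted p = 0.0108; lost in 2 of the 6 omissions, up to 0.0917) and -0.65 ± 0.08 in the libraries labelled shCDK12 (adjusted p = 3.33e-06). Among these 4 rises upon MycER activation with shNT, ADRM1 had the most counts and the smallest SE.

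PSMD2 was at 444, 431 and 453 CPM in shNT, 457, 417 and 461 in shNT_OHT, 296, 269 and 298 in the libraries labelled shCDK12 and 274, 297 and 332 in those labelled shCDK12_OHT. Both groups labelled shCDK12 lay below both shNT groups, by -0.63 ± 0.08 without OHT (adjusted p = 4.03e-07) and -0.55 ± 0.11 with it (adjusted p = 0.00187), and upon OHT with shNT its log2 fold change was 0.00 ± 0.11. Of the 9 base genes, 5 were lower in shCDK12_OHT than in shNT_OHT (PSMC3, PSMC4, PSMC5, PSMD2 and ADRM1) and PSMC2 was higher. Among all genes 21.6% were lower there and 23.8% higher. PSMC5, an ATPase whose gene overlaps FTSJ3, had the largest of the base differences after PSMC4, at -0.88 ± 0.17 (adjusted p = 0.00157). The PSMC2 call (0.38 ± 0.13, adjusted p = 0.0352) was lost in 5 of 6 omissions of 1 library. It was also lost with the replicate block and with length and GC trends removed.

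The lid removes ubiquitin chains through PSMD14, and PSMD13 is one of its structural subunits. PSMD13 (Entrez gene 5719) was at 72.1, 76.5 and 76.2 CPM in shNT, 65.8, 97.3 and 76.6 in shNT_OHT, 17.4, 23.1 and 24.6 in the libraries labelled shCDK12 and 27.4, 29.9 and 39.0 in those labelled shCDK12_OHT. The 6 libraries with the shCDK12 labels were all below the 6 with the shNT labels. The log2 fold change was -1.77 ± 0.15, 3.42-fold lower, without OHT (adjusted p = 1.78e-10) and -1.28 ± 0.19, 2.42-fold lower, with it (adjusted p = 3.46e-04). With OHT it was 1.45-fold higher within the libraries labelled shCDK12 (adjusted p = 0.00983), a call lost without shCDK12_OHT replicate 3 (log2 fold change 0.39, adjusted p = 0.0709). Omitting single libraries left its log2 fold change against shNT between -1.86 and -1.66.

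The nearest tested genes around PSMD13 were looked up after its values were seen, and they did not move as one. SIRT3, annotated head to head with it, had -0.24 ± 0.19 (adjusted p = 0.269) in the libraries labelled shCDK12 against shNT and -0.04 ± 0.21 with OHT (adjusted p = 0.886). RIC8A, beyond SIRT3, had -0.71 ± 0.09 (adjusted p = 2.48e-07) and -0.36 ± 0.15 (adjusted p = 0.0764), and PGGHG, downstream of PSMD13, -0.97 ± 0.22 (adjusted p = 3.91e-04) and -1.57 ± 0.23 (adjusted p = 3.50e-04). IFITM2, beyond PGGHG, went the other way with OHT, at -0.04 ± 0.26 (adjusted p = 0.910) and 1.00 ± 0.28 (adjusted p = 0.0140).

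Of the other genes of the lid and PSMD4, PSMD7 (-0.66 ± 0.10) and PSMD3 (-0.54 ± 0.11) were lower and PSMD12 (0.51 ± 0.13) and PSMD14 (0.48 ± 0.17) higher in the libraries labelled shCDK12 than in shNT. With OHT, 5 of 9 were lower by label (PSMD13, PSMD3, PSMD7, PSMD8 and PSMD4) and 0 higher, where 21.6% of all genes were lower and 23.8% higher. The calls of PSMD4 and PSMD8 were each lost in 3 of 6 omissions of 1 library. Both were also lost with length and GC trends removed. Upon MycER activation with shNT, 0 of 9 passed the test, against 17.3% of all genes. The 9 values ran from -0.18 to 0.38, and 1 gene had an unadjusted p under 0.05.

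The activators PSME1 and PSME2 form the interferon-induced cap without ATPases, PSME3 its nuclear form and PSME4 a single-chain activator, and PSMF1 is an inhibitor of the core. Upon MycER activation with shNT, 0 of these 5 genes passed the test, against 17.3% of all genes, and 0 had an unadjusted p under 0.05. PSME3 was at 195, 187 and 197 CPM in shNT, 184, 171 and 225 in shNT_OHT, 161, 131 and 146 in the libraries labelled shCDK12 and 134, 142 and 131 in those labelled shCDK12_OHT. Its 6 libraries with shCDK12 labels were all below the others (-0.41 ± 0.10 without and -0.50 ± 0.13 with OHT, adjusted p = 6.66e-04 and 0.00808).

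PSMF1 was at 83.6, 76.5 and 79.2 CPM in shNT, 70.2, 87.4 and 93.7 in shNT_OHT, 54.7, 46.5 and 51.3 in the libraries labelled shCDK12 and 64.7, 57.3 and 65.3 in those labelled shCDK12_OHT. It was lower by label without OHT (-0.66 ± 0.12, adjusted p = 6.18e-05) and with OHT (-0.40 ± 0.15, adjusted p = 0.0420), and higher with OHT in the libraries labelled shCDK12 (0.30 ± 0.11, adjusted p = 0.0235). The last 2 calls were each lost in 4 of the 6 omissions of 1 library (adjusted p up to 0.184 and 0.0960). PSME4 was higher by label, by 0.31 ± 0.10 and 0.44 ± 0.14.

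PSME1 was at 10.8, 13.3 and 10.0 CPM in shNT, 16.6, 9.07 and 8.12 in shNT_OHT, 12.7, 12.1 and 8.88 in the libraries labelled shCDK12 and 17.3, 15.3 and 12.2 in those labelled shCDK12_OHT. PSME2 was at 20.8, 27.5 and 19.5 CPM in shNT, 24.4, 20.6 and 31.3 in shNT_OHT, 32.4, 28.2 and 25.9 in the libraries labelled shCDK12 and 24.7, 24.0 and 31.7 in those labelled shCDK12_OHT. For both genes the groups overlapped, and each passed the edgeR test in 0 of the 4 pairwise comparisons (unadjusted p under 0.05 in 1, PSME1 upon OHT in the libraries labelled shCDK12).

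The OHT response can be set side by side in both backgrounds, since the 2 comparisons share no library. All 5 genes that changed with shNT also changed in the libraries labelled shCDK12. The sign was opposite for PSMG1, PSMB10, PSMC4 and ADRM1 and the same for PSMG2, which was lower in both (-0.53 and -0.32). Among all genes called in both comparisons, 1363 had opposite signs and 31 the same sign. For PSMG2 the second call was lost in 4 of the 6 omissions of 1 library (adjusted p up to 0.152), while those of the other 4 genes were kept in all 6. Over the 45 genes tested in both, 26 had opposite signs (57.8%) and Pearson's r was -0.60, a description across genes, which are not independent replicates. Over all 10233 genes tested in both, 71.1% had opposite signs and r was -0.62. The part of the label doubt in this reversal was not tested. A test of the difference itself, the interaction in a fit of all 12 libraries, passed for 12 of 47 proteasome genes (25.5%, against 45.2% of 11699 genes), with 9 below 0 (19.6% of all genes were) and 3 above (25.6%). The median interaction was -0.15 on the log2 scale, against 0.10 over all genes. Upper-quartile normalization moved both medians by over 0.1, to -0.27 and -0.02, and the median of the proteasome genes stayed below that of all genes.

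**Figure D3:**
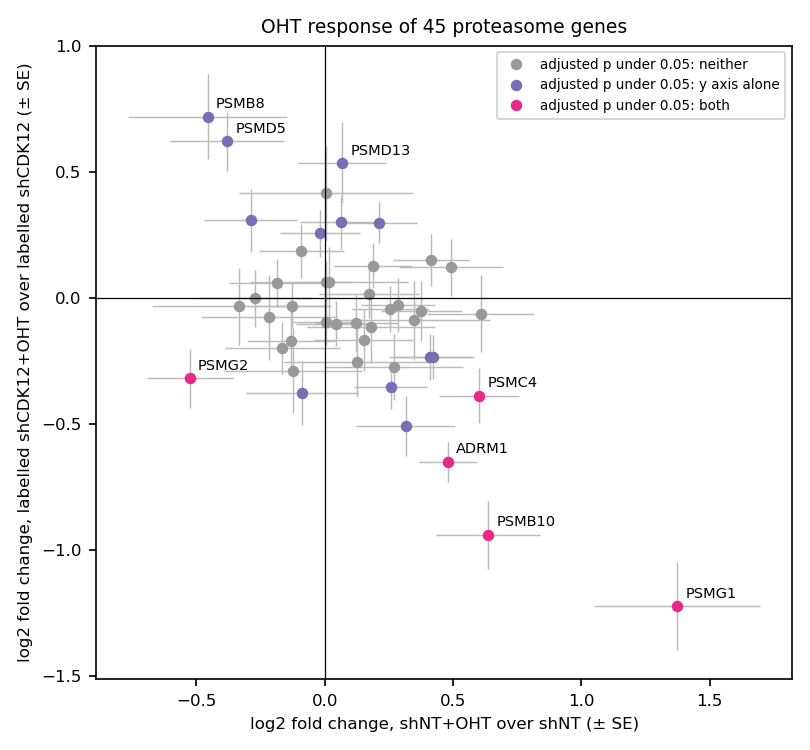
Log2 fold change with its SE upon OHT in shNT (horizontal) and in the libraries labelled shCDK12 (vertical) for the 45 proteasome genes tested in both. PSMG1, PSMB10, PSMC4 and ADRM1 lie at lower right, higher with shNT and lower in the other background, and PSMG2 lies at lower left.

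The shRNA contrasts without and with OHT, which also share no library, had the same sign for 30 of 47 proteasome genes (63.8%, against 59.4% of 11440 genes; Pearson's r across genes 0.31 and 0.35). Among all genes called in both, 2482 had the same sign and 1014 opposite signs. Of 16 proteasome genes called in both, 12 had the same sign. These were PSMB5, PSMC5, PSMD2, PSMD3, PSMD7, PSMD13, PSME3 and PSMF1, lower in both, and PSMA1, PSMD9, PSMD10 and PSME4, higher in both. Of these 12, PSMC5 lost the call without OHT in 4 of 6 omissions of 1 library and PSME4 in 1. With OHT, PSMD9 lost it in 5 of 6, PSMF1 in 4 and PSME4 in 3. PSMG1, PSMB10, ADRM1 and PSMA7 were called with opposite signs, higher by label without OHT and lower with it. Without OHT the calls of PSMB10 (4 of 6 omissions, adjusted p up to 0.261), PSMA7 (3 of 6) and ADRM1 (1 of 6, up to 0.0734) were lost when 1 library was left out. With OHT those of PSMA7 (4 of 6) and PSMG1 (1 of 6) were.

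**Figure D4:**
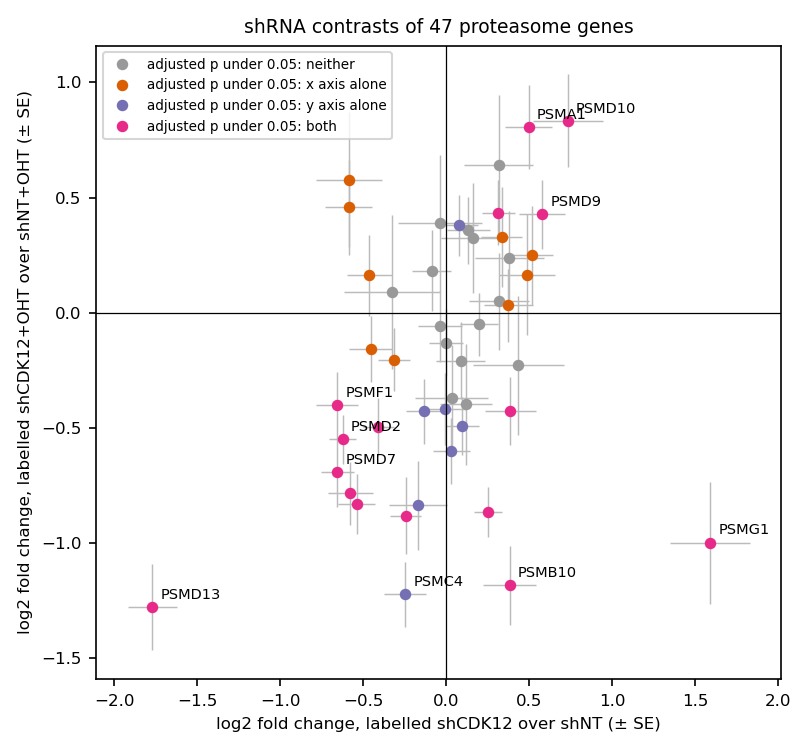
Log2 fold change with its SE of the libraries labelled shCDK12 against shNT (horizontal) and of those labelled shCDK12_OHT against shNT_OHT (vertical), for 47 proteasome genes. PSMD13 is lower in both, PSMD10, PSMA1 and PSMD9 are higher in both, and PSMG1 and PSMB10 change sign.

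Base composition moved with the OHT response. Across the 45 genes tested, the log2 fold change in shNT_OHT against shNT had a Pearson's r of 0.45 with the GC content of the canonical transcript, against 0.27 over 10147 genes. The 15 genes of lowest GC content (up to 42.2%) had a median of -0.13 and the 15 of highest (from 52.0%) a median of 0.41. In shCDK12_OHT against shNT_OHT, r was -0.52 across 47 genes, against -0.26 over 11487. When per-library trends in gene length and GC content were removed from the counts, these r were 0.04 and -0.16. The removal itself takes out such trends, so the smaller r is no separate result. PSMG1 and PSMC4 then passed the test upon MycER activation with shNT (1.37, adjusted p = 0.00289, and 0.46, adjusted p = 0.0115). ADRM1 (0.26, adjusted p = 0.0568), PSMB10 (0.34, adjusted p = 0.219) and PSMG2 (-0.32, adjusted p = 0.131) did not. In shCDK12_OHT against shNT_OHT, 15 of the 18 lower calls were shared with the counts as deposited. PSMA7, PSMD4 and PSMD8 lost the call, and PSMA5, PSMC6 and PSMD1 gained one.

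**Figure D5:**
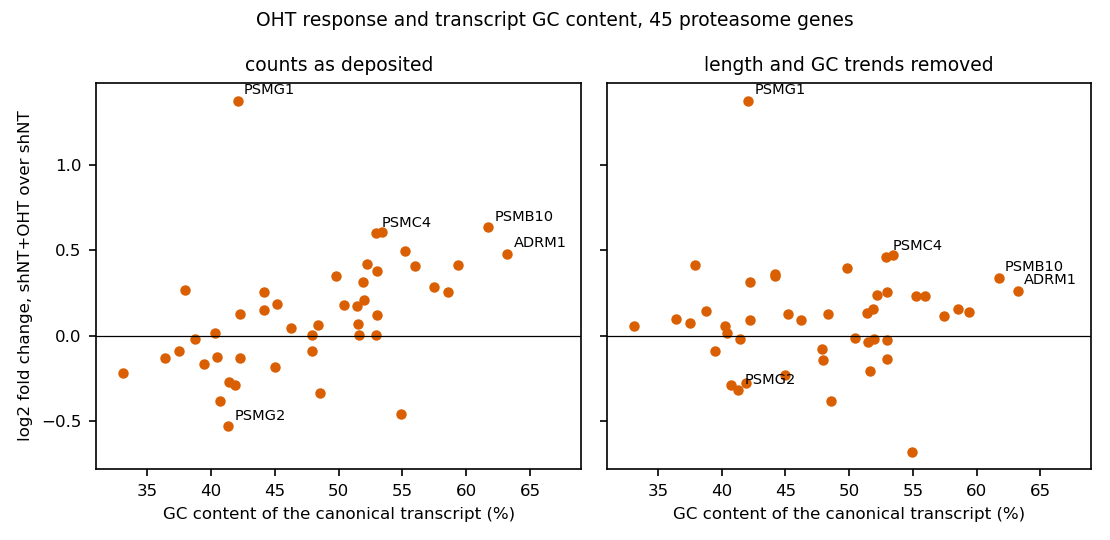
Log2 fold change in shNT_OHT against shNT (vertical) by the GC content of the canonical transcript in percent (horizontal) for 45 proteasome genes, from the counts as deposited (left) and with per-library length and GC trends removed (right). The slope seen on the left, from a median of -0.13 in the lowest 15 genes to 0.41 in the highest 15, is not seen on the right, where PSMG1 stays at 1.37. The removal itself takes out such a slope.

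Beyond the proteasome itself, 39 genes of ubiquitin, its shuttles and the control of proteasome genes were followed as a fixed list. Upon MycER activation with shNT, 4 of 38 tested were higher and 0 lower, where 9.05% of all genes were higher and 8.29% lower. The higher genes included ZFAND2A, a stress-induced proteasome partner (0.77 ± 0.25, adjusted p = 0.0430), and the small MAF gene MAFF (0.69 ± 0.13, adjusted p = 0.00254). Upon OHT in the libraries labelled shCDK12, 4 of 39 were higher and 4 lower (27.5% and 21.5% of all genes). The 3 largest rises upon OHT were NFE2L2 (0.66 ± 0.08), MAFG (0.48 ± 0.08) and the p97 cofactor NPLOC4 (0.46 ± 0.08), and the largest falls were the cap deubiquitinase UCHL5 (-1.03 ± 0.27), which ADRM1 holds on the cap, and ECPAS (-0.54 ± 0.09).

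By label NFE2L2 had the largest fall of the list, -1.47 ± 0.08 in the libraries labelled shCDK12 against shNT (adjusted p = 6.08e-14), and -0.73 ± 0.13 with OHT (adjusted p = 9.99e-04).

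NFE2L1, the factor that drives proteasome genes, was at 481, 484 and 410.5 CPM in shNT, 601, 507 and 487 in shNT_OHT, 388, 329 and 388 in the libraries labelled shCDK12 and 364, 384 and 379.8 in those labelled shCDK12_OHT. The shNT_OHT libraries were the highest, but OHT gave 0.21 ± 0.12 with shNT, which did not pass (adjusted p = 0.225). By label it was lower without OHT (-0.32 ± 0.09, adjusted p = 0.00235) and with it (-0.48 ± 0.11, adjusted p = 0.00400). In the libraries labelled shCDK12 against shNT, 15 of the 39 were higher and 8 lower, where 29.6% and 32.4% of all genes were. In shCDK12_OHT against shNT_OHT 9 were higher and 10 lower, where 23.8% and 21.6% of all genes were.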

How the data were processed

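EU-seq libraries of U2OS-MycER cells were analysed from 1 table of raw counts per gene that the authors deposited, without normalization, by Entrez identifier. Per the labels' processing notes, STAR 2.7.5c, featureCounts 1.4.5-p1 and hg19 were used; the strand setting is not given in the sources used here. Symbols, promoters and overlaps came from RefSeq (GRCh38.p14; 23284 of 23434 rows matched, and 150 without a symbol stayed in the tests), and transcript length and GC content from GENCODE canonical transcripts. No coordinate of the counts was used.

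Genes with a mean TMM-normalized count above 32 over the libraries of a fit were tested with edgeR 4.0.16 in R 4.3.3 (quasi-likelihood test, Benjamini-Hochberg over all genes tested, adjusted p under 0.05), in fits of the 6 libraries compared, or of all 12 for the interaction. SEs were taken from the log2 fold change and the test statistic. Depth was 1251695 to 10447836 counts. Alternatives were DESeq2 1.42.0, upper-quartile normalization, no filter or a mean above 10, all 12 libraries in 1 fit, the replicate number as a block, removal of length and GC trends, thinning to 1251700 counts, and omission of single libraries. The code was tested on simulated data.

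Given with values per library were the catalytic and immunoproteasome subunits, PSME1 to PSME3, PSMF1, POMP and ADRM1; the 5 largest calls in each OHT comparison and the 3 largest in the others; the 3 highest levels per length; and the 3 genes nearest to 0 in shNT_OHT against shNT. Other genes of the set were named after their values were seen. Some genes of the lists are counted but not reported here by name. Genes and lists were chosen with earlier results of these data known.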

Additional observations from a re-analysis of the deposited data

Results flagged for a closer look

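The OHT response differed between the shNT libraries and those labelled shCDK12 for 12 proteasome genes, by a test of the interaction in edgeR on all 12 libraries with Benjamini-Hochberg adjustment over 11699 genes. These are 25.5% of the 47 tested, where 45.2% of all genes passed (25.6% above 0 and 19.6% below). The interaction, on the log2 scale, is the OHT response in the libraries labelled shCDK12 minus that with shNT.

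It was below 0 for 9 genes: PSMG1 (-2.60, adjusted p = 7.20e-06), PSMB10 (-1.58, adjusted p = 1.95e-05), ADRM1 (-1.13, adjusted p = 1.17e-06), PSMC4 (-0.997, adjusted p = 0.000304), PSMA7 (-0.83, adjusted p = 0.00397), PSMB3 (-0.69, adjusted p = 0.0354), PSMC5 (-0.664, adjusted p = 0.00719), PSMC3 (-0.654, adjusted p = 0.00593) and PSMB2 (-0.611, adjusted p = 0.00481). It was above 0 for 3 genes: PSMB8 (1.14, adjusted p = 0.0126), PSMD5 (1.04, adjusted p = 0.00191) and PSMA4 (0.612, adjusted p = 0.0399). When 1 of the 12 libraries was left out, PSMA4 lost the call in 9 omissions and PSMB3 in 7, and the other 10 kept it in every one. In all 12 the OHT log2 fold change had opposite signs in the backgrounds, though for PSMB3 it was 0.61 with shNT and -0.06, with an adjusted p of 0.765, in the libraries labelled shCDK12. Over all 10233 genes tested in both backgrounds 71.1% had opposite signs, and the 12 were picked by the difference itself. CDK12 itself had an interaction of -0.83 (adjusted p = 4.55e-05), and the part of the label doubt in these values was not tested.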

How the results depend on the processing

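Of 110 results for single named genes, 63 kept their sign and side of the threshold in every alternative run, 18 lost the call in at least 1, 15 gained one, and 0 changed sign while called. In shNT_OHT against shNT the 5 calls became 10 with all 12 libraries in 1 fit, 3 with the replicate block, 2 with length and GC trends removed and 3 of 37 tested after thinning (PSMG1 was not tested there), and 0 to 11 when single libraries were left out. They were 5 higher and 0 lower with DESeq2, and 6 and 0 with upper-quartile normalization. Over all genes 930 were higher and 852 lower in the main run, 1087 and 789 with DESeq2, and 1065 and 723 with upper-quartile normalization. The 18 calls upon OHT in the libraries labelled shCDK12 became 9 with all 12 libraries, 7 after thinning, and 11 to 19 with 1 library left out. The 23 calls in shCDK12_OHT against shNT_OHT were 15 to 26 with 1 library left out, and the median of -0.16 was -0.34 after thinning. The median interaction was -0.27 with upper-quartile normalization. By gene span in place of transcript length, PSMB4 was rank 1 and ADRM1 rank 2 in level. The causes were not tested.

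Over all genes, the calls in shNT_OHT against shNT numbered 1782, 3256 with all 12 libraries, and 670 (without shNT replicate 2) to 2523 (without shNT_OHT replicate 1) with 1 library left out. Upon OHT in the libraries labelled shCDK12 they numbered 6128, 4373 with all 12 libraries, and 5000 to 6500 with 1 left out. In shCDK12_OHT against shNT_OHT they numbered 5298, and 3520 to 6238 with 1 left out. After thinning, the calls were 4468, 3270, 3158 and 3242 in shCDK12 against shNT, shCDK12_OHT against shCDK12, shCDK12_OHT against shNT_OHT and the interaction.

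Libraries of different groups with the same replicate number correlated in their deviations from the group means at -0.094 to 0.30 (median 0.025, 2 of 18 pairs over 0.1). Those with different numbers correlated at -0.33 to 0.10 (median -0.024, 1 of 36 over 0.1). Pairing by number was thus weak in most pairs and is not excluded. With the number as a block, 3, 25, 17, 18 and 12 proteasome genes were called in shNT_OHT against shNT, shCDK12 against shNT, shCDK12_OHT against shCDK12, shCDK12_OHT against shNT_OHT and the interaction, against 5, 25, 18, 23 and 12 without it. PSMB10 and PSMG2 lost the call in the first of these, PSMC3 in the third, and PSMD4, PSMC2, PSMD9, PSMF1 and PSMA7 in the fourth, and 0 were gained.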

Other observations

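The neighbours of PSMG1 on chromosome 21 were looked up after its values were seen. In the libraries labelled shCDK12 against shNT, ETS2 had a log2 fold change of -0.11 ± 0.13 (SE, n = 3 per group; edgeR adjusted p = 0.493), BRWD1 -0.66 ± 0.13 (adjusted p = 8.98e-05) and HMGN1 -0.47 ± 0.18 (adjusted p = 0.0232), while ERG, beyond ETS2, had 1.47 ± 0.30 (adjusted p = 1.84e-04). ERG was at 3.75, 5.46 and 12.5 CPM in shNT, 7.52, 5.77 and 9.57 in shNT_OHT, 17.6, 18.8 and 16.8 in the libraries labelled shCDK12 and 11.5, 8.46 and 9.43 in those labelled shCDK12_OHT, and it was not tested in shNT_OHT against shNT.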
